A study of Drosophila simulans with 4 samples.

Results

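Adult males of *Drosophila simulans* from Mayotte, an island within the ancestral range of the species, were compared between a natural medium made of the local resource, banana, and a cornmeal medium. The comparison covers genes whose normalised count averaged at least 20 over both Mayotte libraries, which were 10757 of the 15358 genes listed. Each medium was represented by 1 library of whole-body RNA from 100 first-generation males, each the son of a different wild-caught female, and the labels give 7 days of growth, where the methods of the study give a shorter aging. RNA of the males of a medium was extracted in 4 parts that were then pooled, so the variation between males lies inside each library and is not measured. No mutation, transgene or drug treatment is described for either library, and both came from the same population. Each wild-caught female was placed on 1 medium only, so the banana and cornmeal males came from different females. The methods of the study call the medium used in place of fruit axenic, that is, free of microbes. The other 2 libraries of the series came from males of Gotheron in the Rhône Valley, 1 reared on apple and 1 on cornmeal. They served here as a reference for spread. Their levels and differences for the same genes are also described.

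Banana and cornmeal differ in sugars and starch, and fruit also carries yeasts and bacteria that flies eat with it. In Drosophila, digestive enzymes and the enzymes of sugar and lipid metabolism are known to follow the diet, and contact with bacteria is known to induce secreted antimicrobial peptides through the Toll and Imd pathways, the main routes of innate immune signalling in flies. The methods of the study state that the natural medium of Mayotte was contaminated by bacteria. This statement concerns the banana side of the Mayotte comparison. Effects of banana, of the bacteria and of the different sets of females cannot be told apart in that comparison. Genes are listed by FlyBase identifier without a name, and 0 of the 15358 identifiers occurred in the RefSeq gene table used, that of Prin_Dsim_3.1. The study gives most of its genes a *D. melanogaster* identifier, and no table pairing these with names was used here. Pathways, families and sex or tissue markers could therefore not be assigned here, and the label of adult males was not checked against marker genes.

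The deposited values are read counts of cDNA 3′ ends, brought to an equal total in every library by a single factor for each. The factors correspond to 10365609 reads on the listed genes in the Mayotte banana library and 9829895 in the Mayotte cornmeal library. At least 1 read was counted for 14481 genes on banana and 14390 genes on cornmeal, and the genes kept for the comparison held 99.8% of the total in each. With 1 library a side there is no replicate error for any gene. Differences are therefore described by their size, on the scale of log2(normalised count + 1) of banana minus cornmeal, and no p-value is given. Counting intervals cover the error of sampling reads only.

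Most genes had nearly the same level on both media. The median log2 difference was -0.03 over the 10757 genes, the central 50% of the genes lay between -0.20 and 0.15, and 90% lay between -0.48 and 0.53. The standard deviation over genes was 0.357. Over the 10844 Gotheron genes that averaged 20 or more in their own pair, the median difference of apple minus cornmeal was also -0.03 and the standard deviation was 0.440. The 2 Mayotte libraries were thus closer to each other over the bulk of the genes than the 2 Gotheron libraries were. A log2 difference above 0 was found for 44.7% of the genes in Mayotte and 46.2% in Gotheron.

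**Figure D1:**
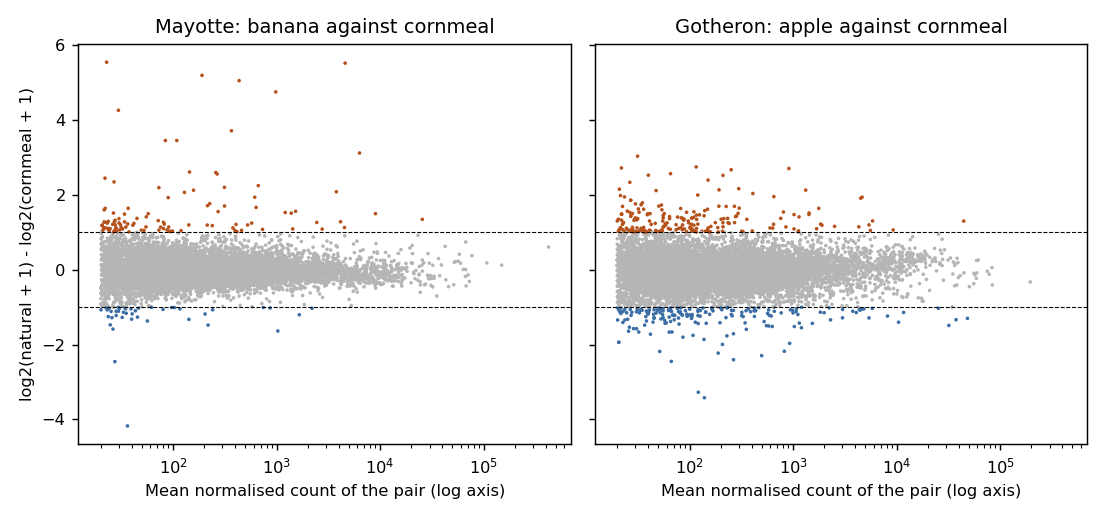
Log2 difference of the natural medium minus cornmeal (vertical axis) against the mean normalised count of the 2 libraries (horizontal log axis), 1 point per gene with a mean of at least 20, for Mayotte on the left and Gotheron on the right. Dashed lines mark a 2-fold difference, with higher genes in orange and lower genes in blue. In Mayotte the largest differences lie above the line and reach 5.54, against 3.03 in Gotheron.

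Among the genes past 2-fold at this filter on low values, more were higher on banana than lower. At least 2-fold higher on banana were 111 genes, or 1.03% of the genes compared, and 42 genes, or 0.39%, were at least 2-fold lower. Without the filter the larger number was on the lower side, with 636 genes higher and 818 lower of all 15358. However, 1 read stood for 1.02 on cornmeal and 0.970 on banana. With 1 added to each value, 1 cornmeal read against none on banana was called 2-fold lower. The reverse, 1 banana read against none on cornmeal, was not called higher. With a mean of at least 5 there were 272 higher and 164 lower. At equal totals, the 95% counting interval of the ratio of banana to cornmeal lay wholly above 1 for 1322 of the 10757 genes. It lay wholly below 1 for 1922. The other scalings tried added 0.0252 to 0.0370 to the log2 difference of every gene, and these 2 counts were not recomputed under them. In Gotheron the 2 directions were nearly equal past 2-fold, with 199 genes (1.84%) at least 2-fold higher on apple and 190 (1.75%) at least 2-fold lower. At larger sizes, and with the filter on low values, most of the Mayotte genes were on the higher side. At least 4-fold higher on banana were 21 genes (0.195%), and 2 genes (0.0186%) were at least 4-fold lower. The Gotheron counts at 4-fold were 16 genes higher on apple (0.148%) and 8 lower (0.0738%). At 8-fold, 10 genes were higher on banana (0.093%) and 1 was lower (0.0093%), while in Gotheron 1 gene was higher on apple (0.00922%) and 2 were lower (0.0184%). Mayotte therefore had fewer genes past 2-fold than Gotheron and more genes past 8-fold. Whether the media effects differ between the populations was not tested, as each cell of the design holds 1 library and the natural media differ.

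**Figure D2:**
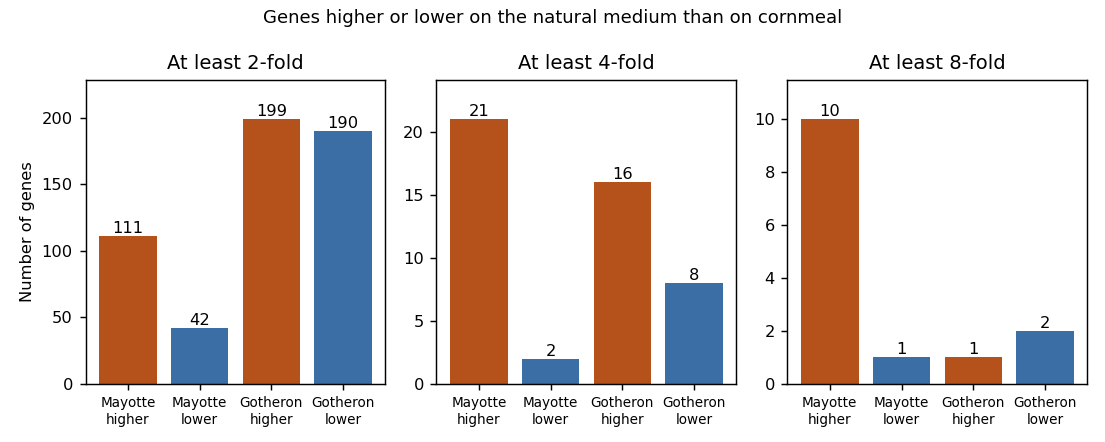
Number of genes (vertical axis, from 0) at least 2-, 4- and 8-fold higher (orange) or lower (blue) on the natural medium than on cornmeal in Mayotte and in Gotheron, 1 pair of libraries each. The 10 Mayotte genes at least 8-fold higher stand beside 1 such gene in Gotheron.

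The counts differed between ranges of expression level. From a mean of 20 to below 50, 50 of the 1643 Mayotte genes were at least 2-fold higher and 27 at least 2-fold lower. In this range the standard deviation of the log2 difference was 0.520 and the median counting error of a gene was 0.358. From 300 to below 1000 the standard deviation was 0.296 and the median counting error 0.0921. There 16 of 2692 genes were at least 2-fold higher and 2 were lower. Among the 1311 genes from 1000 to below 10000, 12 were higher and 3 lower, with a counting error of 0.0476. From 100 to 10000 the share of genes at least 2-fold higher was 0.429%, 0.594% and 0.915% in the successive ranges. More genes were higher than lower in each of the 6 ranges, while 27 of the 42 lower genes lay in the lowest range. Of the 170 genes at 10000 or more, 1 was at least 2-fold higher on banana and 0 were lower. The standard deviation in Mayotte was below that in Gotheron in all 6 ranges of level.

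**Figure D3:**
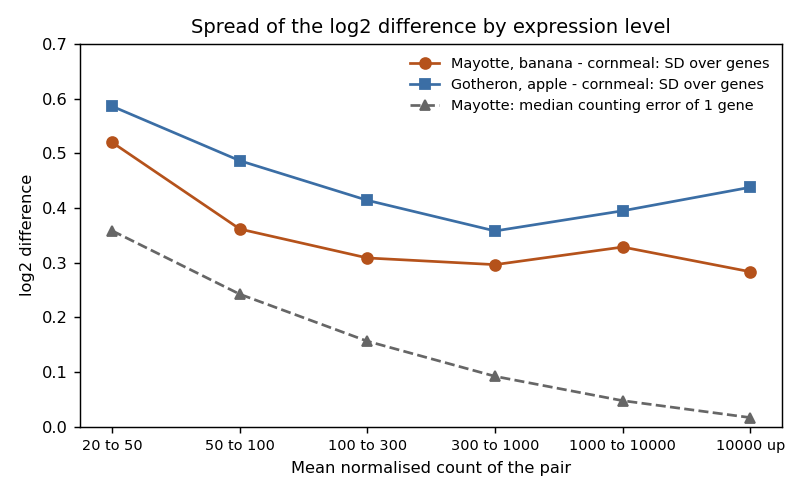
Standard deviation over genes of the log2 difference (vertical axis) in 6 ranges of the mean normalised count (horizontal axis), for Mayotte banana minus cornmeal (circles) and Gotheron apple minus cornmeal (squares), with the median counting error of a Mayotte gene (triangles). The Mayotte line runs from 0.520 in the lowest range to 0.283 in the highest, below the Gotheron line throughout and above the counting error.

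The Gotheron pair gave a spread for genes of like level. In each range of the mean, the 99th percentile of the absolute Gotheron difference was taken as a limit, which lay between 1.11 and 1.71. In Mayotte 38 genes (0.353%) were higher on banana by more than this limit, and 4 (0.0372%) were lower. Both directions together amount to less than the 1 percent that the limit leaves in Gotheron by its definition. Of the 38 genes, 4 lay in the lowest range of level, 5 from 50 to below 100, 10 from 100 to below 300, 12 from 300 to below 1000 and 7 from 1000 to below 10000. The Gotheron differences include any effect of apple, so the limit is not a pure measure of error.

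The counting error left the ratio of many genes past 2-fold uncertain around that limit. At a mean of 20 a 2-fold difference by itself puts the counting interval off a ratio of 1, so only its position against 2-fold is given. The 95% Clopper-Pearson interval of the ratio of banana to cornmeal lay wholly above 2 for 39 of the 111 higher genes, among them all 21 genes past 4-fold. On the lower side it lay wholly below a ratio of 1/2 for 5 of the 42. Near the limit of 2-fold, 27 genes had a log2 difference from 1 to below 1.1 and 35 from 0.9 to below 1, and on the lower side the same bands held 20 and 30 genes. The number of genes past 2-fold thus rests on a limit in a dense part of the distribution. The 21 genes past 4-fold do not depend on the 2-fold limit, but their number also changed with the filter and the pseudocount.

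The genes at least 4-fold higher on banana covered a wide range of levels. Their normalised counts on banana ranged between 37.8 and 11341 with a median of 371, and on cornmeal between 0 and 1443 with a median of 49.1. In the Gotheron libraries the same genes had medians of 82.7 on apple and 75.9 on cornmeal. Summed over the 21 genes, the normalised counts were 34111 on banana and 3812 on cornmeal in Mayotte, a ratio of 8.95. The Gotheron sums were 6860 on apple and 4540 on cornmeal, a ratio of 1.51. These genes took 0.339% of the Mayotte banana library and 0.0379% of the Mayotte cornmeal library. A single gene, with 11341 on banana and 1308 on cornmeal, made up 33.1% of the difference between the Mayotte sums, and the ratio was 9.09 without it.

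In the 10 genes past 8-fold, the Mayotte banana library stood apart from all the other libraries. Its values were above both Gotheron libraries in 10 of 10 genes, and the Mayotte cornmeal library was the nearer of both Mayotte libraries to the Gotheron mean in 10 of 10. The medians of these genes were 526 on banana and 21.0 on cornmeal in Mayotte, and 26.4 on apple and 24.8 on cornmeal in Gotheron. Over all 10757 genes, the banana library was above both Gotheron libraries in 20.8%, and the cornmeal library was the nearer one in 53.7%. Among the 21 genes past 4-fold the banana library was above both Gotheron libraries in 19, and the cornmeal library was the nearer one in 19. For the 90 genes from 2-fold to below 4-fold the banana library was above both Gotheron libraries in 74, a share of 82.2%, and the cornmeal library was the nearer one in 49, a share of 54.4%. The genes were chosen on the difference between both Mayotte libraries, so these positions describe them and test nothing.

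**Figure D4:**
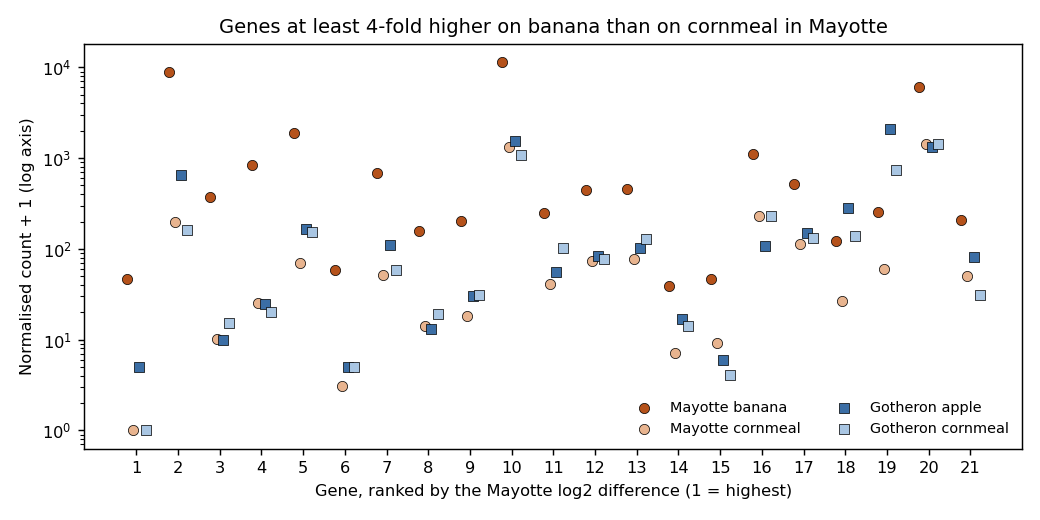
Normalised count + 1 (vertical log axis) in each of the 4 libraries for the 21 genes at least 4-fold higher on banana in Mayotte, ranked by their log2 difference (horizontal axis, small offsets separate the libraries). For ranks 1 to 10 the Mayotte banana library (dark orange circles) lies above the other 3, whereas for ranks 18 and 19 both Gotheron libraries lie above it.

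FBgn0186388 had the highest log2 difference. It had a normalised count of 45.6 on banana, against 0 on cornmeal in Mayotte, and 3.99 on apple, against 0 on cornmeal in Gotheron. No read was counted on either cornmeal medium. From 47 reads on banana and 0 on cornmeal, the lower end of the 95% counting interval of the ratio was 11.6. Set against 3 reads, the limit for a count of 0, and taking the banana reads as exact, the value on banana was 14.9 times that limit. The log2 difference of 5.54 depends on the pseudocount for such a gene.

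FBgn0014865 was the next in order and the one with the most reads behind it among the genes named. It had a normalised count of 8985 on banana, against 195 on cornmeal in Mayotte, and 658 on apple, against 160 on cornmeal in Gotheron. Its log2 difference was 5.52 in Mayotte and 2.03 in Gotheron. The ratio of banana to cornmeal was 46 from 9265 and 191 reads, with a 95% counting interval of 39.9 to 53.4. The 3 other libraries lay within 160 to 658 and the Mayotte banana library lay above all of them.

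The other 8 genes past 8-fold had between 57.2 and 11341 on banana, against 2.05 to 1308 on cornmeal in Mayotte. In Gotheron they had between 3.99 and 1526 on apple and 4.05 and 1070 on cornmeal. Over all 10 genes past 8-fold the Gotheron log2 differences lay between -0.61 and 2.32 with a median of 0.20. FBgn0014865 was also at least 2-fold higher on apple. FBgn0186388 had too low a level in Gotheron, 3.99 against 0, for its difference there to be read.

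Genes lower on banana were fewer and the differences were mostly close to 2-fold. Summed over the 42 genes, the normalised counts were 5302 on banana and 12016 on cornmeal in Mayotte, a ratio of 0.441, and the Gotheron sums were 9962 on apple and 12456 on cornmeal. The median log2 difference of these genes was -1.11 in Mayotte and -0.31 in Gotheron. The banana library was below both Gotheron libraries in 34 of the 42, against 50.6% of all genes compared. The cornmeal library was above both in 26 of the 42, against 22.5% of all genes. These 42 genes were also chosen on the difference between both Mayotte libraries, so their positions describe them and test nothing.

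FBgn0033592 had the lowest log2 difference, -4.17 in Mayotte and -1.42 in Gotheron. Its normalised count was 2.91 on banana, against 69.5 on cornmeal in Mayotte, and 9.97 on apple, against 28.4 on cornmeal in Gotheron. It was lower on the natural medium in both populations. The ratio of banana to cornmeal from 3 and 68 reads was 0.0418, with a 95% counting interval of 0.00842 to 0.128.

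FBgn0013687 followed with a log2 difference of -2.46 in Mayotte and -1.02 in Gotheron. It had 7.76 on banana, against 47.0 on cornmeal in Mayotte, and 1.99 on apple, against 5.06 on cornmeal in Gotheron. Both Mayotte values were above both Gotheron values. The ratio from 8 and 46 reads was 0.165, with a counting interval of 0.0672 to 0.353. Both genes had under 100 reads over the Mayotte pair, so the sizes of their differences are loosely fixed. Reads that could belong to a near-identical copy of any of these 4 genes were not analysed here.

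The differences of the Mayotte pair and the Gotheron pair were weakly related over genes. The pairs share no library. Over the 10566 genes that averaged 20 or more in both pairs, Pearson's r was 0.101 and Spearman's rho 0.0611, given as a description since genes are not independent. Of the 111 genes at least 2-fold higher on banana, 66 had a difference above 0 in Gotheron, or 59.5%, against 46.3% of all genes compared. At least 2-fold higher on apple were 17 of the 111, against 201 of all 10757, and 5 were at least 2-fold lower, against 187 of all. These counts include genes whose level in Gotheron was below 20, and all genes compared are not matched to the 111 in level. Of the 111 genes, 50 had a Mayotte mean from 20 to below 50, as had 27 of the 42 genes lower on banana. Among the 1526 Gotheron genes in that range of their own mean, 74 were at least 2-fold higher on apple and 47 at least 2-fold lower. Of the 42 genes lower on banana, 13 had a Gotheron difference above 0, 6 were at least 2-fold lower on apple and 2 at least 2-fold higher, to be read against the same 187 and 201 of all genes.

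The most abundant gene took more of the Mayotte banana library than of the cornmeal one. It accounted for 5.09% of the reads on banana, against 3.35% on cornmeal, and for 1.72% on apple, against 2.16% on cornmeal in Gotheron. As the totals are equal, the sum of all other genes was lower by 1.80% on banana. Of the 10 genes with the highest mean in Mayotte, 6 were higher and 4 lower on banana, with log2 differences from -0.43 to 0.74.

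Below the limit of 20, 4601 genes were left out, of which 384 had no read in either Mayotte library. Of the 1683 genes with a mean from 5 to below 20, 161 were at least 2-fold higher on banana and 122 at least 2-fold lower, and 16 and 11 were past 4-fold. The 2 directions were more nearly equal there than among the genes compared. Of the genes compared, 1 had no read on cornmeal and 0 had no read on banana.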

How the data were processed

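Whole-body RNA of males was sequenced from the 3′ end of the cDNA in 4 libraries. The authors trimmed the reads with seqclean and mapped them with ELAND to the *D. melanogaster* genome first. Reads left unmapped were then mapped to that of *D. simulans*, and their counts were moved to *D. melanogaster* orthologs where these were found. Genes without an ortholog kept a *D. simulans* identifier. The submitters' processing notes name CASAVA. For genome builds and software versions, nothing is given in the sources used here. The authors deposited a signal, namely read counts scaled to equal library totals, and 100% of the entries of each library are whole multiples of its smallest nonzero value, within 0.01. Reads were recovered from those steps.

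The samples were grouped by the medium and population in their titles. Log2(value + 1) differences were computed for genes that averaged 20 or more over the Mayotte pair. Genes were called by size, at 2-, 4- and 8-fold, because 1 library a side allows no test of the medium. Counting intervals are exact (95%, scipy 1.17.1). PCR reads without molecular identifiers are not independent molecules. TMM factors came from edgeR 4.0.16 in R 4.3.3. Scripts were tested on simulated data. The 2 genes with the highest and the 2 with the lowest difference are named, since identifiers are not paired with gene names. The gene lists planned by symbol were not run for the same reason. The comparison, lists and limits were chosen with earlier results of these data known. The alternatives were other pseudocounts, filters and scalings. Immunity genes, which the study set aside before its tests because of the bacteria, could not be told apart here and were not removed. The 15358 genes listed outnumber those the study retained after that step.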

Additional observations from a re-analysis of the deposited data

Results flagged for a closer look

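Some genes differed in opposite directions in the 2 populations. Of the 111 genes at least 2-fold higher on banana in Mayotte, 5 were at least 2-fold lower on apple than on cornmeal in Gotheron. In the same direction, 17 of the 111 were at least 2-fold higher on apple. Over all 10757 genes compared, which were not matched to the 111 in level, 187 were at least 2-fold lower on apple and 201 at least 2-fold higher. The 5 genes had log2 differences from 1.18 to 2.24 in Mayotte and from -1.997 to -1.09 in Gotheron. Their mean normalised counts lay between 239 and 9010 in Mayotte and between 127 and 1027 in Gotheron. Of the 42 genes at least 2-fold lower on banana, 6 were also at least 2-fold lower on apple. At least 2-fold higher on apple were 2 of the 42, at -1.11 and -1.003 in Mayotte and between 1.24 and 1.32 in Gotheron. The Mayotte means of these 2 genes were 28.2 and 29.6. Their Gotheron means were 7.51 and 22.0, so the Gotheron difference of the lower of these rests on few reads. Each population and medium has 1 library and the natural media differ, so the difference was not tested.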

How the results depend on the processing

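The counts followed the filter on low values. With a mean of at least 5, 272 genes were at least 2-fold higher on banana and 164 lower, and 37 and 13 were past 4-fold. With a mean of at least 100 there were 43 and 11, with 15 genes at least 4-fold higher and 0 at least 4-fold lower. With no filter there were 636 higher and 818 lower, and 100 and 75 past 4-fold. The larger number at 2-fold was then on the lower side, where a single cornmeal read against none on banana passed the limit. A single banana read against none on cornmeal did not pass it. A pseudocount of 5 left 83 genes at least 2-fold higher and 26 at least 2-fold lower, with 18 at least 4-fold higher and 2 at least 4-fold lower. The standard deviation was 0.362 and 0.333 with pseudocounts of 0.5 and 5, and 0.431, 0.307 and 0.586 with means of at least 5, at least 100 and no filter. The median was -0.0452 with a mean of at least 100 and -0.0227 with no filter. It was -0.00897 under TMM scaling, 0.00272 under the median of ratios and -0.00123 when the 10 most abundant genes were left out of the totals. Under these 3 scalings 118, 122 and 120 genes were at least 2-fold higher and 35, 31 and 31 lower. The 4 named genes kept their direction in all 5 alternatives run on them, and with a pseudocount of 5 the difference of FBgn0186388 was 3.34.

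An exact binomial test of the recovered reads, added after seeing the data, passed 2295 genes at an adjusted threshold of 0.05. It compares 2 libraries, not the media. The genes past 2-fold and past 4-fold were chosen on the size of the difference in the same reads, so their outcome in this test adds no support. No paired analysis was possible because each population and medium has 1 library, and leaving out a library would remove a side of the comparison. Gene lists were not run. At 10365609 reads in the banana library and 9829895 in the cornmeal library of Mayotte, the counting error limits genes with a mean below 50.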
